A study of Homo sapiens with 6 samples.

Results

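HDAC9, the other class IIa histone deacetylases HDAC4, HDAC5 and HDAC7, and the transcription factors MEF2A, MEF2C and MEF2D were followed across VCaP prostate cancer cells with and without knockdown of PRMT5. The members were all probe sets that the platform annotation pairs with exactly 1 of these 7 symbols, which gave 22 of 54675 probe sets and 7 of 19775 annotated genes. HDAC9 heads the group because its signal differed so widely between knockdown and control cells. That contrast was therefore part of the choice, and the members' differences from control cells are given as a description. Where limma's calls of the members against control cells are counted, they stand beside the share of all genes called and support nothing. The difference between the 2 PRMT5 hairpins was not part of the choice and was tested.

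VCaP is an established human prostate cancer line. The cells carried PRMT5 shRNA 1, PRMT5 shRNA 2 or the non-targeting NTC shRNA, with 2 arrays for each hairpin, and all of them, the NTC cells included, received doxycycline at 100 ng/ml for 3 days. PRMT5 is an enzyme that methylates arginine in histones, splicing proteins and other targets. Uninduced cells were not analysed here. The labels do not say whether the 2 arrays of a group came from separate cultures, so all p-values rest on a spread between arrays that may be technical.

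Class IIa deacetylases are corepressors with little catalytic activity of their own. They bind MEF2 proteins on DNA and bring in corepressor complexes that contain HDAC3, which keeps MEF2 target genes low. Kinases of the CaMK, PKD, SIK and AMPK families phosphorylate them, after which adaptor proteins of the YWHA family hold them in the cytoplasm and MEF2 factors are free to activate. The system is best known from muscle, neurons and blood vessels, and HDAC9 is itself described as a MEF2 target in mouse muscle, where it feeds back on MEF2.

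The DNA at the annotated starts is shown first because windows of HDAC9 and MEF2A share 1 short sequence there. RefSeq promoter windows of GRCh38.p14, with 250 bases before and 50 after an annotated start, were found for 6 members (22 windows, none for HDAC5). A gene can have several annotated starts, and some lie inside it. They were searched for the MEF2 consensus motif, an A/T-rich decamer whose form is the same on both strands. Matches stood in 3 of the 22 windows, 1 each for HDAC9, MEF2A and MEF2C, and in 2.99% of 35116 windows of the same length. The HDAC9 window is chr7:18086575-18086874 on the plus strand, the MEF2A window chr15:99565734-99566033 on the plus strand, and the MEF2C window chr5:88824295-88824594 on the minus strand. Each is written 5′ to 3′ in the direction of the gene, and capitals mark the match.
HDAC9: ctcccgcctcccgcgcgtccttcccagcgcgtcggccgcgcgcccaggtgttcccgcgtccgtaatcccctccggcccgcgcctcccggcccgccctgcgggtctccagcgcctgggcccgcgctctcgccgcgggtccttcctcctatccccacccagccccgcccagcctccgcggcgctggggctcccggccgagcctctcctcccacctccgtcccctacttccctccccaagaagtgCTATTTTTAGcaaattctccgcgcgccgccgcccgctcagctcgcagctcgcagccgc
MEF2A: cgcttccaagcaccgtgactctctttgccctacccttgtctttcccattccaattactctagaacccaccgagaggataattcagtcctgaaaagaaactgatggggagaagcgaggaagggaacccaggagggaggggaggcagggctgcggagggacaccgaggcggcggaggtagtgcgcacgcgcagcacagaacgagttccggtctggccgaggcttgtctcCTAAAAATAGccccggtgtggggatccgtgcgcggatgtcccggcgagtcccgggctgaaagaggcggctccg
MEF2C: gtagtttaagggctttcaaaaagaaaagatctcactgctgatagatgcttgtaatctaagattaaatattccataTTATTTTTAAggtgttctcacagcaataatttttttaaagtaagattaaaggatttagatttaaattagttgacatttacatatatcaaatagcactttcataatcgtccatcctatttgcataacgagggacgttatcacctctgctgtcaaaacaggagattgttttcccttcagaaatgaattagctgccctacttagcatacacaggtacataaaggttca
Counted from the annotated start, the match begins at -8 in HDAC9, at -23 in MEF2A and at -175 in MEF2C. That start is the 5′ end of the gene for HDAC9, and it lies inside the gene for MEF2A and MEF2C. The decamers of HDAC9 (CTATTTTTAG) and MEF2A (CTAAAAATAG) are the same sequence read on opposite strands. That decamer, looked up after the matches were seen, stood on either strand in 50 of the 35116 windows (0.142%). The other 4 HDAC9 windows, from chr7:18495460 onward, held no match, nor did the 5 windows of HDAC4, the single windows of HDAC7 and MEF2D, the other 2 of MEF2A or the other 6 of MEF2C. The windows of HDAC7 and MEF2D lie inside the gene, so the 5′ ends of these genes were not searched. A match of letters does not show that a factor binds.

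PRMT5 was examined as a check on the labels. On its brightest probe set it read 135.6 and 133.8 on the PRMT5 shRNA 1 arrays and 291.2 and 321 on the PRMT5 shRNA 2 arrays, against 809.8 and 880.5 on the NTC arrays. The signal left was 15.9% of the NTC mean with shRNA 1 and 36.2% with shRNA 2. Array medians lay between 14.8 and 16.4, arrays of 1 group correlated at 0.996 to 0.997 over 12413 tested genes, and arrays of different groups at 0.976 to 0.991. The prostate luminal markers KLK3, HOXB13, FOXA1, KRT8 and KRT18 stood above the median on all 6 arrays, while 10 of 11 muscle, endothelial and blood markers stood below it on every array and TNNT3 reached it on 2 arrays. Those 11 markers summed to 56.9 on both PRMT5 shRNA 1 arrays and 48 to 56.3 on the PRMT5 shRNA 2 arrays, against 49.1 to 62.5 on the NTC arrays. The muscle factor MYOD1 read at most 6.2. The luminal markers summed to 5448.9 to 5561.6 with PRMT5 shRNA 1 and 5384.4 to 5804.9 with PRMT5 shRNA 2, against 3900.8 to 4014.9 with NTC, a difference carried mostly by KLK3. HOXB13 went the other way (-0.28 ± 0.07 SE for both hairpins averaged, limma, adjusted p = 0.00865), a call lost without NTC replicate 2 (-0.25). By hairpin HOXB13 differed by -0.47 ± 0.08 with shRNA 1 and by -0.09 ± 0.08, not called, with shRNA 2. With the mean over probe sets its average was -0.14 and not called. FOXA1 was not called (-0.13 ± 0.08). The part of these shifts in the results was not tested. For ACTB the signal of the 3′ over the 5′ control probe set, which reflects RNA and cDNA length, was 3.69 ± 0.279 with shRNA 1 and 5.36 ± 0.511 with shRNA 2, against 4.73 ± 0.209 with NTC (SD, n = 2). For GAPDH it was 1.22 ± 0.0177 with shRNA 1 and 1.22 ± 0.0073 with shRNA 2, against 1.29 ± 0.0531 with NTC. The part of these ratios in the results was not tested.

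HDAC9 encodes a class IIa deacetylase that also exists as a short form without the catalytic domain. On its brightest probe set, 205659_at, it read 25.4 and 26.1 on the PRMT5 shRNA 1 arrays and 19.8 and 24.1 on the PRMT5 shRNA 2 arrays, against 288.8 and 284.8 on the NTC arrays. All 4 knockdown arrays lay far below both NTC arrays and somewhat above the array medians. In RNA from a whole culture, fewer cells that express a gene and less RNA in each of them cannot be told apart. On the log2(intensity + 16) scale, which shrinks differences of dim signals, the difference from NTC was -2.86 ± 0.10 (SE) with shRNA 1 and -3.0 ± 0.10 with shRNA 2. Averaged over both hairpins it was -2.93 ± 0.09, with -3.54 at a pseudocount of 1 and -2.0 at 64, since the knockdown signals are close to the background.

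The other 4 HDAC9 probe sets were dim. 230968_at read 4.6 and 4.4 with PRMT5 shRNA 1 and 1.4 and 4.7 with PRMT5 shRNA 2, against 19.3 and 19.7 with NTC. It thus reached the array median on the NTC arrays alone, and it passed the filter on dim probe sets through that group. The remaining 3 probe sets, 234393_at, 1552758_at and 1552760_at, read between 1 and 6.2 on all 6 arrays, below every array median. Their platform entries differ, and which HDAC9 isoforms each probe set reads was not examined, so the drop is described by 1 bright and 1 dim probe set.

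**Figure D1:**
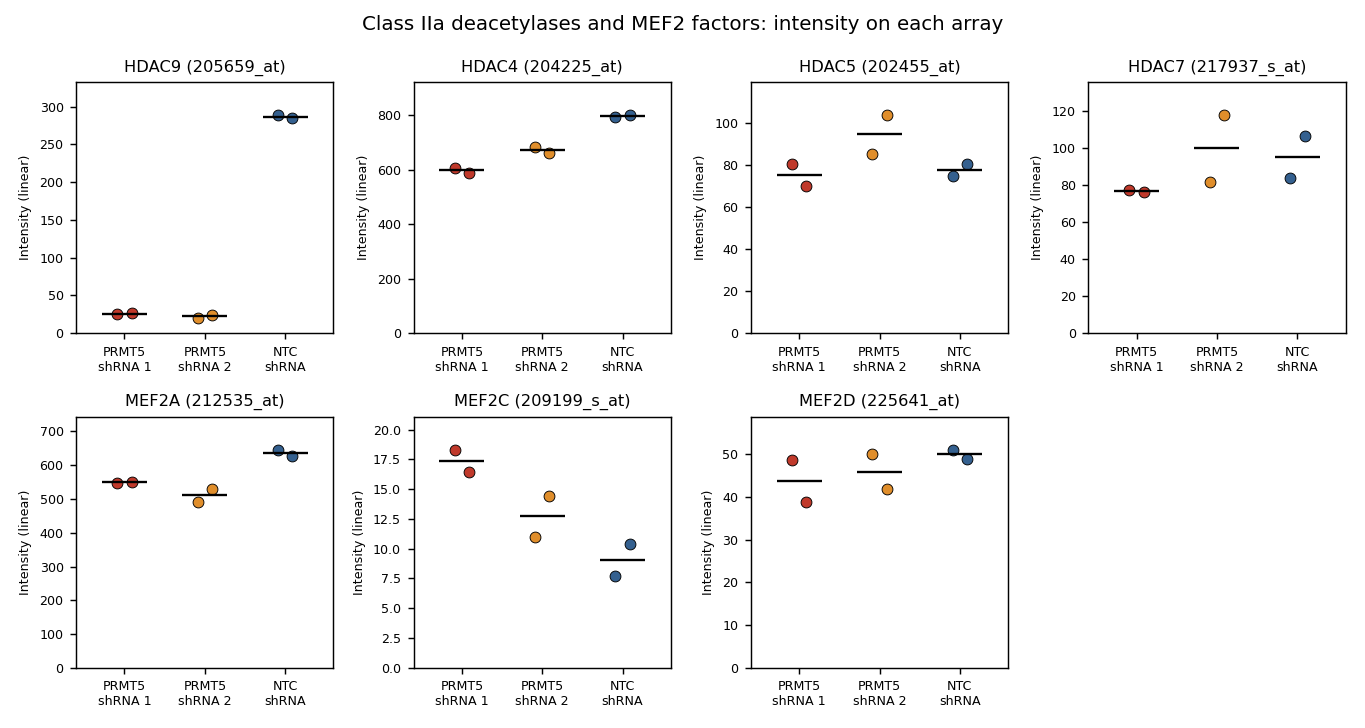
Intensity (linear scale, each axis from 0) of the brightest probe set of each gene on the 2 PRMT5 shRNA 1, 2 PRMT5 shRNA 2 and 2 NTC arrays, with points for arrays and lines for group means. HDAC9 sits between 19.8 and 26.1 in knockdown cells and at 284.8 and 288.8 in NTC cells, and the 4 knockdown arrays also lie below both NTC arrays for HDAC4 and MEF2A, while MEF2C is dim throughout.

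HDAC4, a deacetylase known for restraining MEF2 in muscle, bone and neurons, was lower in knockdown cells by much less. It read 605.8 and 589.6 on the PRMT5 shRNA 1 arrays and 682.7 and 662.5 on the PRMT5 shRNA 2 arrays, against 793.5 and 800.8 on the NTC arrays. The groups did not overlap, and the shRNA 1 arrays were the lowest. The log2 difference from NTC was -0.41 ± 0.06 (SE) with shRNA 1 and -0.24 ± 0.06 with shRNA 2. A second probe set, 228813_at, gave -0.34 ± 0.07 and -0.11 ± 0.07 in the same order. The third, 1554322_a_at, stayed at or below 9.3, as did the probe set of the antisense transcript HDAC4-AS1, at or below 9.1.

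HDAC5, a deacetylase best known from heart muscle and neurons, showed no common direction. It read 80.4 and 70.1 with PRMT5 shRNA 1 and 85.4 and 103.7 with PRMT5 shRNA 2, against 74.7 and 80.6 with NTC. The shRNA 1 and NTC arrays overlapped, and both shRNA 2 arrays were above both NTC arrays. The log2 differences from NTC were -0.04 ± 0.11 (SE) with shRNA 1 and 0.24 ± 0.11 with shRNA 2. The dimmer probe set 229408_at gave 0.16 ± 0.11 and 0.14 ± 0.11.

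HDAC7, known from thymocytes and endothelium, had the largest SE of the 7 genes on the log2 scale. It read 77.4 and 76.2 with PRMT5 shRNA 1 and 81.8 and 118 with PRMT5 shRNA 2, against 83.7 and 106.4 with NTC. The shRNA 1 arrays were lowest, and the shRNA 2 and NTC arrays overlapped. The log2 differences from NTC were -0.25 ± 0.15 (SE) with shRNA 1 and 0.05 ± 0.15 with shRNA 2. The shRNA 2 value turned to -0.10 without NTC replicate 1 and to -0.18 without PRMT5 shRNA 2 replicate 2. The averaged difference of -0.10 ± 0.13 turned to 0.05 without NTC replicate 2 and to 0.01 without PRMT5 shRNA 2 replicate 1. Its other probe set, 236326_at, read at most 7.3.

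MEF2A, a broadly expressed MEF2 factor, was lower on its brightest probe set. It read 547.6 and 551.4 with PRMT5 shRNA 1 and 490.1 and 531.1 with PRMT5 shRNA 2, against 645.8 and 628.5 with NTC. The 4 knockdown arrays lay below both NTC arrays. The log2 difference from NTC was -0.21 ± 0.07 (SE) with shRNA 1 and -0.31 ± 0.07 with shRNA 2. The other 3 probe sets did not follow it. 214684_at gave 0.04 ± 0.09 and -0.09 ± 0.09, 208328_s_at gave 0.19 ± 0.11 and -0.15 ± 0.11, and 242176_at gave 0.14 ± 0.11 and 0.05 ± 0.11 with shRNA 1 and shRNA 2. With the mean over probe sets the averaged difference was -0.04 instead of -0.26, so the lower MEF2A level rests on 1 probe set.

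MEF2C, the MEF2 factor of heart, brain, endothelium and B cells, was near the background on all arrays. Its brightest probe set, 209199_s_at, read 18.3 and 16.4 with PRMT5 shRNA 1 and 11 and 14.4 with PRMT5 shRNA 2, against 7.7 and 10.4 with NTC. All 4 knockdown arrays were above both NTC arrays. Only the shRNA 1 arrays reached the array median, the second of them exactly, and MEF2C entered the fit through that group alone. The log2 differences from NTC were 0.41 ± 0.12 (SE) and 0.20 ± 0.12. 209200_at read 10.8 and 12.9 with PRMT5 shRNA 1 and 10.9 and 11.7 with PRMT5 shRNA 2, against 6.5 and 6.4 with NTC, so it was also higher, but below every median. The third probe set and that of the antisense transcript MEF2C-AS1 read at most 6.1 and 4.8.

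MEF2D, also broadly expressed, did not separate the groups. It read 48.7 and 38.7 with PRMT5 shRNA 1 and 50 and 41.8 with PRMT5 shRNA 2, against 51 and 48.8 with NTC, and these ranges overlapped. The log2 differences from NTC were -0.15 ± 0.12 (SE) and -0.09 ± 0.12. Probe set 203003_at gave 0.30 ± 0.11 and 0.05 ± 0.11, so the probe sets differed in sign, and the mean over probe sets gave 0.03 for both hairpins averaged, against -0.12 for the brightest. The remaining probe set, 203004_s_at, read at most 14.8.

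**Figure D2:**
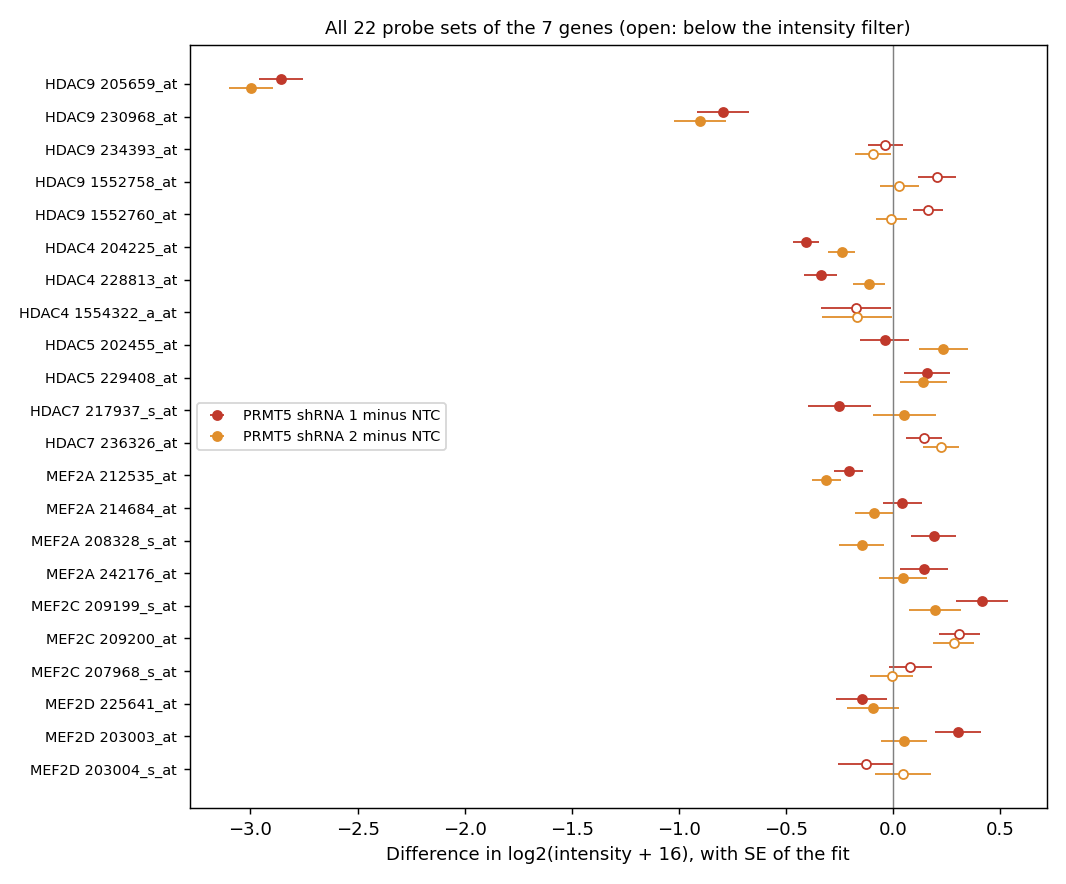
Difference from NTC in log2(intensity + 16) for all 22 probe sets with PRMT5 shRNA 1 (red) and PRMT5 shRNA 2 (orange), with the SE of limma's fit; open points are the 8 probe sets below the intensity filter. HDAC9 205659_at stands at -2.86 and -3.0, HDAC4 has 2 bright probe sets on the lower side, and the probe sets of MEF2A and MEF2D lie on both sides of 0.

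Over the fit of all genes, with both hairpins averaged, limma placed 4 of the 7 members past an adjusted p of 0.05. HDAC9, HDAC4 and MEF2A were lower and MEF2C was higher, beside 32.4% of all genes called in that contrast, 17.0% lower and 15.4% higher. With shRNA 1 alone HDAC9, HDAC4 and MEF2A were lower and MEF2C was higher, beside 39.3% of all genes (23.1% lower, 16.2% higher). With shRNA 2 alone HDAC9, HDAC4 and MEF2A were lower and 0 members were higher, beside 21.4% of all genes (8.39% lower, 13.1% higher). These counts come from the contrast by which HDAC9 was chosen, and both hairpins share the NTC arrays, so nothing is read from them. The 4 knockdown arrays did not overlap the 2 NTC arrays for 4 members and for 39.2% of all genes. The median difference was -0.12 for the 7 members, -0.11 without HDAC9, and -0.01 for all genes tested. MEF2A was not past the threshold for the average without NTC replicate 1 (-0.24), nor was MEF2C without any 1 of 5 arrays, all but PRMT5 shRNA 2 replicate 1 (0.23 to 0.38). With shRNA 2 alone HDAC4 was not past the threshold without NTC replicate 1 (-0.25), NTC replicate 2 (-0.23) or PRMT5 shRNA 2 replicate 2 (-0.22), nor MEF2A without NTC replicate 1 (-0.29). With shRNA 1 alone MEF2A was not past it without either NTC or either PRMT5 shRNA 1 array (-0.23 to -0.19), nor MEF2C without NTC replicate 1 (0.34) or either PRMT5 shRNA 1 array (0.37 and 0.46).

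The test between the hairpins asked whether the members depended on which hairpin was used. PRMT5 itself exceeded its shRNA 1 level in shRNA 2 cells by 1.09 ± 0.08 (SE) in log2 units (limma, adjusted p = 8.0e-05). HDAC9 differed by -0.14 ± 0.10, with a 95% interval of -0.37 to 0.09 (limma, adjusted p = 0.341). No difference in HDAC9 was thus detected between cells that kept more and less PRMT5, at signals close to the background under both hairpins. Of the 7 members 0 passed this test in either direction, beside 25.7% of all genes (18.3% higher and 7.38% lower with shRNA 2). HDAC4 and HDAC5 had an unadjusted p under 0.05. The share of all genes at that unadjusted threshold was not counted, so nothing is read from it. MEF2C is among the 7, but it entered the fit through the shRNA 1 arrays alone, so its result supports nothing.

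HDAC4 differed by 0.17 ± 0.06 (95% interval 0.03 to 0.30; limma, adjusted p = 0.0669), with both shRNA 2 arrays above both shRNA 1 arrays. HDAC5 differed by 0.27 ± 0.11 (0.02 to 0.52; limma, adjusted p = 0.098) and HDAC7 by 0.30 ± 0.15 (-0.02 to 0.63; limma, adjusted p = 0.156). Both passed without PRMT5 shRNA 2 replicate 1 (0.39, limma, adjusted p = 0.0465, and 0.53, limma, adjusted p = 0.0256). MEF2A differed by -0.10 ± 0.07 (-0.25 to 0.04; limma, adjusted p = 0.277), MEF2C by -0.22 ± 0.12 (-0.49 to 0.05; limma, adjusted p = 0.209) and MEF2D by 0.05 ± 0.12 (-0.21 to 0.32; limma, adjusted p = 0.771). MEF2C entered the fit only through the PRMT5 shRNA 1 arrays, where it read highest. Its difference is therefore a description, and its interval and p-value support nothing. The intervals are not adjusted for the number of genes and leave room for differences of the sizes they span. Tested over all 28644 kept probe sets, HDAC4 228813_at (0.23 ± 0.07, limma, adjusted p = 0.0456) and MEF2A 208328_s_at (-0.34 ± 0.11, limma, adjusted p = 0.0374) passed. They are 2 of the 14 kept member probe sets. The share of all kept probe sets that passed was not counted, so nothing is read from that number. HDAC4 was also called with the mean over its probe sets (0.20, limma, adjusted p = 0.0238).

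**Figure D3:**
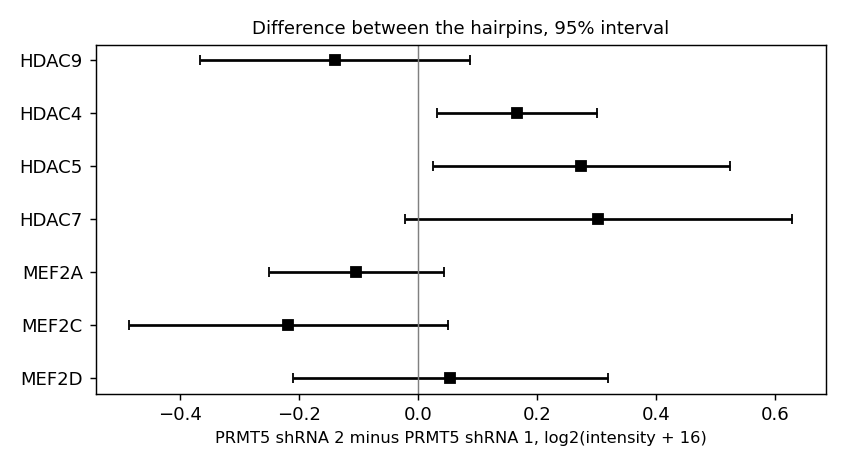
Difference between PRMT5 shRNA 2 and PRMT5 shRNA 1 in log2(intensity + 16) for the 7 genes, with unadjusted 95% intervals from limma's fit on all 6 arrays. HDAC9 spans -0.37 to 0.09. The intervals of HDAC4 and HDAC5 leave out 0, although neither passed after adjustment over 12413 genes. The MEF2C interval is a description, since MEF2C entered the fit through PRMT5 shRNA 1 alone.

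The genes around HDAC9 were examined to see whether the locus moved together. HDAC9 spans chr7:18086825-19002416 (GRCh38.p14, plus strand). The 3 nearest protein-coding genes on each side are AHR, SNX13 and PRPS1L1 before it and TWIST1, FERD3L and POLR1F after it. POLR1F, a subunit of RNA polymerase I, read 663.2 and 608.6 with PRMT5 shRNA 1 and 593 and 578.5 with PRMT5 shRNA 2, against 711.6 and 732.5 with NTC, and fell by a log2 difference of -0.24 ± 0.06 (SE, limma, adjusted p = 0.0096). It lost that call without NTC replicate 1 (adjusted p = 0.0524, limma) or NTC replicate 2 (0.0920).

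SNX13, a sorting nexin, did not pass (0.10 ± 0.06 SE, limma, adjusted p = 0.259), and neither did the ligand-activated transcription factor AHR (0.07 ± 0.09, limma, adjusted p = 0.571). AHR read 119.2 and 131.8 with PRMT5 shRNA 1 and 85.6 and 89.8 with PRMT5 shRNA 2, against 107.1 and 91.7 with NTC, so the hairpins lay on opposite sides of NTC (-0.45 ± 0.10 between them, limma, adjusted p = 0.011). That call was lost without PRMT5 shRNA 1 replicate 2 (limma, adjusted p = 0.0888). TWIST1, a mesenchymal transcription factor next to HDAC9, read 10 and 4.3 with PRMT5 shRNA 1 and 9.1 and 10.6 with PRMT5 shRNA 2, against 3.3 and 6.5 with NTC, below every array median. PRPS1L1 read at most 3.6 and FERD3L at most 0.9. Among the neighbours with signal above the medians, only POLR1F passed in the averaged contrast, with a difference far smaller than that of HDAC9.

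The 5 genes most like HDAC9 were those at the shortest Euclidean distance over the 6 arrays, each gene's log2(intensity + 16) taken relative to its own NTC mean. The median distance of all tested genes was 5.84, since HDAC9 lies far from most of them. They were SAMD5 at 0.57, RFX6, a transcription factor of endocrine cells, at 0.59, TCIM at 0.63, the ADP-ribosyltransferase family gene ART3 at 0.93, and IL1RAPL1, of the interleukin 1 receptor family, at 0.94. SAMD5 read 71.9 and 61 with PRMT5 shRNA 1 and 85.2 and 83.1 with PRMT5 shRNA 2, against 596.2 and 609.5 with NTC. RFX6 read 11.5 and 9.4 with PRMT5 shRNA 1 and 12.4 and 21.4 with PRMT5 shRNA 2, against 245.3 and 223.7 with NTC. These 5 genes were, like HDAC9, chosen here by this contrast, so their closeness is a description. Between the hairpins, whose arrays also entered the distance, SAMD5 (0.28 ± 0.09 SE, limma, adjusted p = 0.0448), ART3 (0.76 ± 0.10, limma, adjusted p = 0.0011) and IL1RAPL1 (0.60 ± 0.11, limma, adjusted p = 0.00455) passed as higher with shRNA 2 than with shRNA 1. SAMD5 did so only at the margin. It was not called without NTC replicate 1 or 2 (limma, adjusted p = 0.0778 and 0.0776), PRMT5 shRNA 1 replicate 2 (0.275) or PRMT5 shRNA 2 replicate 1 or 2 (0.103 and 0.0907), and its value was -0.040 with the mean over probe sets.

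**Figure D4:**
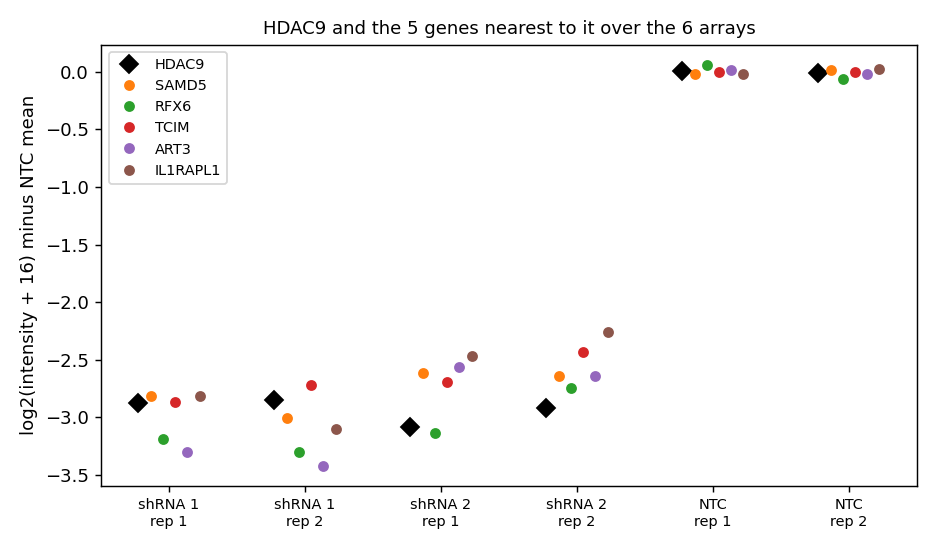
log2(intensity + 16) minus each gene's NTC mean on the 2 PRMT5 shRNA 1, 2 PRMT5 shRNA 2 and 2 NTC arrays, for HDAC9 (diamonds) and the 5 nearest genes. All 6 genes lie more than 2 below their NTC mean on the 4 knockdown arrays, and ART3 and IL1RAPL1 lie lower with shRNA 1 than with shRNA 2.

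The partners of these factors were taken from 5 lists of 76 genes in all, of which 59 were tested. With both hairpins averaged, 11 rose and 5 fell, which is 27.1% of those tested, beside 32.4% of all genes. After quantile normalization the split was 10 higher and 10 lower, beside 1975 higher and 2158 lower of all 12413 genes. With the mean over probe sets it was 8 higher and 10 lower, beside 2096 higher and 2185 lower of all 12413 genes. CAMK1D, CAMK2D and KLF4 were called under every alternative that gave them a value. The count of 16 list genes called in the main fit fell when either NTC array was left out, as did the count of all genes called. The lists were drawn up with earlier results of these data known.

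The largest difference in the lists was in the kinases and adaptors that move class IIa deacetylases out of the nucleus. There 4 of 24 tested genes rose and 3 fell (median -0.04, all genes -0.01), beside 15.4% of all genes higher and 17.0% lower. After quantile normalization 4 were higher and 5 lower. CAMK1D, a calcium/calmodulin-dependent kinase, read 71.5 and 68.6 with PRMT5 shRNA 1 and 78.6 and 92.6 with PRMT5 shRNA 2, against 363.6 and 336.2 with NTC. It fell by a log2 difference of -1.97 ± 0.09 (SE, limma, adjusted p = 3.7e-08), with all 4 knockdown arrays far below both NTC arrays. CAMK2D, the delta subunit of CaMKII, read 1284.2 and 1295.7 with PRMT5 shRNA 1 and 1046.7 and 1010.2 with PRMT5 shRNA 2, against 738.9 and 766.2 with NTC, and rose by 0.60 ± 0.05 (limma, adjusted p = 5.8e-06).

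CAMKK2, the kinase that activates CaMKI and AMPK, fell (-0.40 ± 0.06 SE, limma, adjusted p = 0.000428), as did PRKAA2, a catalytic subunit of AMPK (-0.29 ± 0.08, limma, adjusted p = 0.0152). CAMK2G (0.32 ± 0.08), CAMK1 (0.25 ± 0.07) and the protein kinase D gene PRKD1 (0.18 ± 0.06) rose slightly in the average (limma, adjusted p = 0.0117, 0.0211 and 0.0418). By hairpin, CAMK1 was called with both, CAMK2G with shRNA 2 only, PRKAA2 with shRNA 1 only and PRKD1 with neither. Of the 2 kept CAMK1 probe sets, 1 had a positive difference. Without NTC replicate 1, PRKAA2, CAMK2G, CAMK1 and PRKD1 lost their calls (limma, adjusted p = 0.172, 0.0713, 0.0952 and 0.152). Without NTC replicate 2, CAMK2G, CAMK1 and PRKD1 did (limma, adjusted p = 0.0888, 0.137 and 0.199), and without PRMT5 shRNA 1 replicate 2, CAMK1 and PRKD1 (0.0630 and 0.124). For PRKD1 the same held without PRMT5 shRNA 2 replicate 2 (limma, adjusted p = 0.0653). CAMK2G was not called without _x_at and _s_at probe sets (0.057), nor CAMK1 with the mean over probe sets (0.091). The adaptor genes YWHAB, YWHAE, YWHAG, YWHAH, YWHAQ and YWHAZ, the export receptor XPO1 and the SIK genes were not called in the averaged contrast. With shRNA 1, SIK1 was called higher (0.31 ± 0.09, limma, adjusted p = 0.0166). SIK2 (-0.28 ± 0.10), PRKD2 (-0.33 ± 0.09) and MARK3 (-0.29 ± 0.09) were called lower with shRNA 1 (limma, adjusted p = 0.0399, 0.0174 and 0.0232). SIK1 (-0.35 ± 0.09) and SIK3 (-0.23 ± 0.08) were called lower with shRNA 2 than with shRNA 1 (limma, adjusted p = 0.0156 and 0.0445). PRKD2 (0.31 ± 0.09) and STK11 (0.23 ± 0.08) were called higher in that contrast (limma, adjusted p = 0.036 and 0.0482). These genes lie outside the rule by which list genes were named, and they were not followed under the alternatives.

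Of 10 tested corepressor partners, 2 rose and 0 fell (median 0.05), beside 15.4% of all genes higher and 17.0% lower. After quantile normalization 2 rose and 1 fell. BCL6, a repressor that recruits class IIa deacetylases, read 637.4 and 533 with PRMT5 shRNA 1 and 566.5 and 619.9 with PRMT5 shRNA 2, against 444.8 and 490.5 with NTC, and rose by 0.32 ± 0.08 (SE, limma, adjusted p = 0.0104). TBL1X, a subunit of such corepressor complexes, rose by 0.22 ± 0.06 (limma, adjusted p = 0.0152). Neither was called without NTC replicate 1 (limma, adjusted p = 0.116 for BCL6 and 0.0921 for TBL1X), nor TBL1X without NTC replicate 2 (0.0984). Of the 7 other histone deacetylases tested, 0 rose and 1 fell (median -0.01), beside the same shares of all genes. HDAC10 was dim, with 11.4 and 10.2 with PRMT5 shRNA 1 and 14.4 and 9.4 with PRMT5 shRNA 2, against 22 and 17.7 with NTC. The difference was -0.39 ± 0.11 (limma, adjusted p = 0.0211). Only the NTC arrays reached the array median, so HDAC10 entered the fit through the group where it was high. Its call is therefore a description and supports nothing. Its call was lost without NTC replicate 1 (limma, adjusted p = 0.176) or PRMT5 shRNA 2 replicate 2 (0.0525).

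Of 12 tested regulators and coactivators of MEF2, 2 rose and 1 fell (median -0.10), beside 15.4% of all genes higher and 17.0% lower. After quantile normalization 1 was higher and 3 were lower. PPP3CA, a catalytic subunit of calcineurin, the phosphatase that activates MEF2 and NFAT, read 3364.2 and 3580.8 with PRMT5 shRNA 1 and 2864.6 and 3029.6 with PRMT5 shRNA 2, against 2792.6 and 2300.1 with NTC, and rose by 0.33 ± 0.07 (SE, limma, adjusted p = 0.00401). PPP3CC, another calcineurin subunit, rose by 0.30 ± 0.11 (limma, adjusted p = 0.047), with overlapping arrays. The acetyltransferase gene KAT2B fell (-0.29 ± 0.07, limma, adjusted p = 0.00851), with -0.53 ± 0.08 for shRNA 1 and -0.04 ± 0.08 for shRNA 2. Without NTC replicate 2, PPP3CA, PPP3CC and KAT2B lost their calls (limma, adjusted p = 0.0788, 0.339 and 0.107). PPP3CC was called without PRMT5 shRNA 1 replicate 1, but not without NTC replicate 1, PRMT5 shRNA 1 replicate 2 or either PRMT5 shRNA 2 array (limma, adjusted p = 0.0587 to 0.132).

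Of 16 reported MEF2 targets, 6 were tested, and 3 rose and 0 fell (median 0.17). Of all genes, 15.4% were higher and 17.0% lower in the averaged contrast (median -0.01), and with 6 genes nothing is read from the count. KLF4, a transcription factor induced by many signals, read 219.9 and 218.6 with PRMT5 shRNA 1 and 205.1 and 230.2 with PRMT5 shRNA 2, against 117.2 and 104.4 with NTC, and rose by 0.89 ± 0.08 (SE, limma, adjusted p = 1.2e-05). JUN (0.24 ± 0.08, limma, adjusted p = 0.0438) and KLF6 (0.21 ± 0.06, limma, adjusted p = 0.0151) rose slightly. The JUN arrays overlapped those of NTC, and 3 of its 4 kept probe sets had a positive difference. By hairpin, JUN was called with shRNA 2 only and KLF6 with shRNA 1 only. KLF6 lost its call without NTC replicate 1 (limma, adjusted p = 0.150) or NTC replicate 2 (0.0521). JUN lost it without NTC replicate 2 (limma, adjusted p = 0.427), without PRMT5 shRNA 1 replicate 2 (0.124), and without replicate 1 or replicate 2 of PRMT5 shRNA 2 (0.0587 and 0.0796). KLF6 was not called without _x_at and _s_at probe sets (0.093) or with the mean over probe sets (0.149). NR4A1 (0.14 ± 0.11), KLF2 and PPARGC1A were not called, and the muscle targets CKM, MYOG, DES, ACTC1, SMYD1, HRC and SLC2A4 read at most 9.6 on every probe set. KLF4, KLF6 and JUN also respond to growth factor and stress signals.

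**Figure D5:**
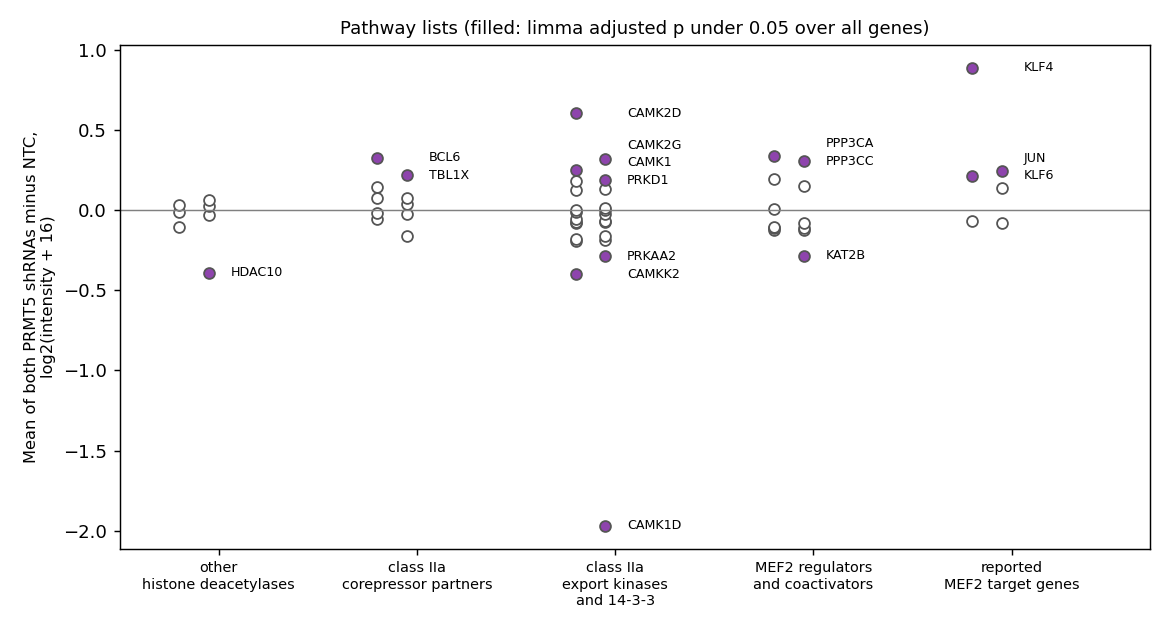
Mean of both PRMT5 shRNAs minus NTC in log2(intensity + 16) for the 59 tested genes of 5 lists, 1 column per list, with filled points for limma adjusted p under 0.05 over all genes. CAMK1D stands apart at -1.97, KLF4 (0.89) and CAMK2D (0.60) are the highest, and the remaining genes lie between -0.40 and 0.33.

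Between the hairpins 14 of the 59 tested list genes passed, 8 higher and 6 lower with shRNA 2, which is 23.7% beside 25.7% of all genes. They were 6 of 24 kinases and adaptors, 3 of 12 MEF2 regulators, 3 of 7 other histone deacetylases, 2 of 10 corepressor partners and 0 of 6 reported MEF2 targets. Of the 7 other histone deacetylases, 2 passed as higher and 1 as lower with shRNA 2 than with shRNA 1. HDAC11 was higher (0.69 ± 0.11 SE, limma, adjusted p = 0.00238), as was HDAC3, the catalytic subunit of such corepressor complexes (0.40 ± 0.08, limma, adjusted p = 0.00746), and HDAC8 was lower (-0.33 ± 0.09, limma, adjusted p = 0.0218). Against NTC, HDAC3 was called lower with shRNA 1 (-0.31 ± 0.08, limma, adjusted p = 0.0144) and was not called with shRNA 2 (0.09 ± 0.08). Of the 10 corepressor partners, CBX5, the heterochromatin protein HP1 alpha, was lower (-0.68 ± 0.08, limma, adjusted p = 0.000595) and ANKRA2, an ankyrin repeat protein that binds class IIa deacetylases, was higher (0.42 ± 0.11, limma, adjusted p = 0.0156). With the mean over probe sets the values were 0.36 for HDAC11 and -0.27 for CBX5, both still called. HDAC3, HDAC8 and ANKRA2 lost their calls without PRMT5 shRNA 1 replicate 1 (limma, adjusted p = 0.0573, 0.125 and 0.0630), HDAC8 and ANKRA2 without PRMT5 shRNA 1 replicate 2 (0.0631 and 0.0788), HDAC8 without PRMT5 shRNA 2 replicate 1 (0.0873) and ANKRA2 without PRMT5 shRNA 2 replicate 2 (0.0804). These 5 genes were named after their values in this contrast were seen. The 3′ to 5′ ratio of ACTB was 5.36 with shRNA 2 and 3.69 with shRNA 1, that of GAPDH was 1.22 with both, and their part was not tested.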

How the data were processed

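The authors deposited 1 intensity per probe set and array, linear and obtained with MAS5 according to the submitters' processing notes. Its version, its detection calls and any later step are not given here. The mean after trimming 2% at each end was 150 on every array, so no further scaling was applied, and 0 value columns matched no sample. Beside 62 control probe sets, which were left out, 41091 probe sets had 1 gene symbol, 1801 several and 11721 none. Entrez IDs placed 41037 of them in RefSeq's gene table for GRCh38.p14, and 0 symbols needed updating.

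A probe set was kept if it reached its array's median on at least 2 of 6 arrays, and the brightest kept one stood for its gene (12413 genes). The log2(intensity + 16) values entered 1 linear model over all 6 arrays with a coefficient per hairpin (limma 3.58.1 under R 4.3.3: lmFit, contrasts.fit, eBayes with trend; 3 residual and 7.89 prior degrees of freedom). Genes were called at a Benjamini-Hochberg adjusted p under 0.05, two-sided. The procedure was also run on simulated data with independent noise and far fewer changed genes than were called here. That setting is unlike these data, so nothing is read from it. The number of arrays limits the precision. Named were all 7 members, PRMT5, the HDAC9 neighbours, the 5 genes nearest to HDAC9, list genes called in the averaged contrast (at most 8 a list) and marker genes. The members and lists were chosen with earlier results of these data known. Alternatives were other pseudocounts, no filter, quantile normalization, the mean over probe sets, no _x_at and _s_at probe sets, a replicate block, both hairpins as 1 group, and each array left out. Motifs were searched in RefSeq promoter windows of GRCh38.p14.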

Additional observations from a re-analysis of the deposited data

Results flagged for a closer look

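For the following genes the effect of the hairpins differed. PRMT5 shRNA 2 and PRMT5 shRNA 1 were told apart by limma's contrast between them (adjusted p under 0.05 over all genes). Of the 7 class IIa and MEF2 genes 0 passed it. MEF2C entered the fit through PRMT5 shRNA 1 alone, so its result supports nothing. With shRNA 2 higher, the log2 differences were 0.284 for SAMD5, 0.758 for ART3, 0.596 for IL1RAPL1, 0.362 for CAMKK2, 0.495 for KAT2B, 0.372 for HOXB13, 0.402 for HDAC3, 0.691 for HDAC11 and 0.424 for ANKRA2. With shRNA 2 lower they were -0.323 for CAMK2D, -0.447 for AHR, -0.335 for HDAC8 and -0.685 for CBX5. CBX5 was lower than NTC with shRNA 2 (-0.37) and higher than NTC with shRNA 1 (0.32), and HDAC11 was higher with shRNA 2 (0.41) while its difference of -0.28 with shRNA 1 was not called. With the mean over probe sets CAMKK2 was not called (0.034). In all, 25.7% of the genes tested passed this contrast.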

How the results depend on the processing

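The averaged differences ranged over 15 alternatives from -3.54 to -1.89 for HDAC9 and from -0.33 to -0.27 for HDAC4; their sign supports nothing, since this contrast chose HDAC9. The range for HDAC9 was set by the pseudocount (-3.54 with 1, -2.0 with 64) and by the mean over probe sets. Of 387 alternative values of the 7 genes, 346 kept direction and side of the threshold, 24 lost it, 3 gained it and 14 changed sign, all 14 for HDAC5, HDAC7, MEF2A or MEF2D. With the mean over probe sets the signs changed for MEF2D (average 0.028, shRNA 1 0.078, between hairpins -0.10), MEF2A with shRNA 1 (0.042), HDAC5 with shRNA 1 (0.060) and SAMD5 between hairpins (-0.040). With each array left out in turn, values on both sides of 0 were found for HDAC7 (average -0.25 to 0.048, turned without NTC replicate 2 and PRMT5 shRNA 2 replicate 1; shRNA 2 -0.18 to 0.28, turned without NTC replicate 1 and PRMT5 shRNA 2 replicate 2), HDAC5 with shRNA 1 (-0.12 to 0.042, turned without NTC replicate 2 and PRMT5 shRNA 1 replicate 2), MEF2D (shRNA 2 -0.19 to 0.0024, turned without PRMT5 shRNA 2 replicate 2; between hairpins -0.067 to 0.18, turned without PRMT5 shRNA 1 replicate 2 and PRMT5 shRNA 2 replicate 1) and AHR (average -0.024 to 0.17, turned without NTC replicate 2). The causes were not tested. Called genes in the averaged contrast numbered 4016, and 1501 with both hairpins as 1 group, where 3 of the list genes were called instead of 16. With each array left out the counts ranged from 2200 to 4248 (average), 3180 to 5283 (shRNA 1), 1561 to 2443 (shRNA 2), 1333 to 2808 (between hairpins) and 7 to 16 (lists), partly by construction, since fewer arrays were used. With the filter on medians over all probe sets, chosen after seeing the data, MEF2C was not tested, and MEF2C had no value without _x_at and _s_at probe sets, nor did HDAC7. The replicate numbers did not pair the arrays (correlations of deviations -0.176 to -0.00448), and a fit with the replicate block called 3705 genes in the averaged contrast, 4559 with shRNA 1, 2435 with shRNA 2 and 2829 between the hairpins. With it MEF2C was no longer past the threshold, nor were PRKD1 and PPP3CC (limma, adjusted p = 0.0609 and 0.0539). Signals near the array medians limit what can be said of MEF2C, HDAC10 and HDAC9 after knockdown.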
